A study of Mus musculus with 8 samples.

Results

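The genes described here build and process the cornified envelope in the last steps of keratinocyte life. They were followed in cultured mouse keratinocytes labelled as a knockout of type I keratins (KO) and in wild-type keratinocytes (WT). The members were the 9 genes Lor, Flg, Ivl, Hrnr, Rptn, Cnfn, Tgm1, Tgm3 and Casp14, taken by symbol from the annotation of the array's probes. Of these, 8 genes had a probe, with 9 probes in all among the 25697 probes and 16593 annotated genes of the value table. No listed probe carried the symbol Flg, so filaggrin is not analysed here. Both groups were of the C57Bl6 strain, and their keratinocytes came from E18.5 embryo skin and were grown to confluency, with no treatment named. The KO group differed from WT only by the loss of type I keratins, as far as the labels state. The labels give neither the medium's calcium level nor the number of embryos that gave cells. Total RNA was hybridised to 8 Illumina arrays, 4 of KO and 4 of WT cells, numbered 1, 2, 3 and 1.1 in each genotype.

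As a keratinocyte matures it replaces its plasma membrane lining with the cornified envelope, a sheath of proteins that transglutaminases join by isopeptide bonds. Involucrin (Ivl) is laid down early as a scaffold, and loricrin (Lor) is added later and makes up most of the finished envelope. Filaggrin (Flg), hornerin (Hrnr) and repetin (Rptn) belong to the S100 fused-type proteins, which carry a calcium-binding head and long repeats. Cornifelin (Cnfn) is a small envelope component. Tgm1 encodes the membrane-anchored transglutaminase of keratinocytes, Tgm3 a transglutaminase that is active after cleavage, and Casp14 a caspase of the upper epidermis that takes part in breaking down filaggrin. In vivo all of these are late genes of the suprabasal layers, and cells dividing in culture hold little of them.

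The arrays themselves set the frame for every value below. Between arrays KO 3 and KO 1.1 the log2 differences of bright probes had an SD of 0.213, and between WT 1 and WT 1.1 of 0.205. The labels call KO 1.1 a repeat of KO 1, but between those arrays the SD was 0.640. The pairs that agreed were averaged and counted as 1 replicate each, which left 3 KO and 3 WT replicates. KO replicate 3 below therefore stands for arrays KO 3 and KO 1.1. This replicate stood apart from KO replicates 1 and 2 (SD 0.595 to 0.640 between arrays), which differed from each other with an SD of 0.418. The comparisons of members, lists and named genes are therefore given with and without it. That choice was made from these same data and removes the most distant KO replicate. P-values without KO replicate 3 are therefore likely too small. The labels do not tie replicates to different embryos, and a p-value here reflects no more than the scatter among these samples, which may be technical. The type I keratin Krt17 was not above the background limit (an intensity of 6.30) on any KO array, arrays KO 3 and KO 1.1 included, and read 16655 to 19131 on the WT arrays. Krt18, another type I keratin, was above the limit on all 4 KO arrays (89.1 to 280) and read 2.24 to 73.4 on the WT arrays. Not every type I keratin transcript was thus missing from the KO cells. All 8 keratinocyte markers (Krt5, Trp63, Dsg3, Perp, Sfn, Cdh3, Itgb4 and Col17a1) were above the limit on at least 3 arrays. None of the 8 leukocyte markers was, and Ptprc, Cd207, Itgam, Fcer1g, Tyrobp and Lyz2 were not above it on any array.

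Of the 9 members, 5 lie on chromosome 3 in the epidermal differentiation complex, where 16 protein-coding genes separate Lor from Ivl and none separates Flg, Hrnr and Rptn. Cnfn lies on chromosome 7, Casp14 on 10, Tgm1 on 14 and Tgm3 on 2. The 4 members whose level in KO replicate 3 stood farthest above KO replicates 1 and 2 were Lor, Rptn, Cnfn and Ivl, with Rptn taken at a lower bound. The 250 bases before the start of each of these genes are shown for that reason, from RefSeq on GRCm38.p6, with matches to the AP-1 letters TGANTCA in capitals. AP-1 is the Fos and Jun factor long studied at the loricrin and involucrin promoters.

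Lor (chr3:92083143-92083392, minus strand): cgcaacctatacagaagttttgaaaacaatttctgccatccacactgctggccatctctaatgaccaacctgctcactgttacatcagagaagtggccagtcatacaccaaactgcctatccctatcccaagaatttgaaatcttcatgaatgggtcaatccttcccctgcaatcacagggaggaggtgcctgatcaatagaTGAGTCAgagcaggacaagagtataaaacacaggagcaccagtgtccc

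Ivl (chr3:92573736-92573985, minus strand): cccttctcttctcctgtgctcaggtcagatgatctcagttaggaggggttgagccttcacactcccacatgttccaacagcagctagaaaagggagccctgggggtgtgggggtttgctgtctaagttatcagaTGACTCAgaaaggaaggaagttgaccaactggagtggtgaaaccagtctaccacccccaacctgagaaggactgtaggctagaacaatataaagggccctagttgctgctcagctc

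Rptn (chr3:93393449-93393698, plus strand): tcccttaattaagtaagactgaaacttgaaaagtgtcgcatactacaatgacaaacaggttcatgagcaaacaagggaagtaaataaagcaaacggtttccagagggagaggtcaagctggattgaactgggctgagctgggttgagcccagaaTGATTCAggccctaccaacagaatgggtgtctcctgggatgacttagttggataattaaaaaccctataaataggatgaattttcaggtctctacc

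Cnfn (chr7:25369725-25369974, minus strand): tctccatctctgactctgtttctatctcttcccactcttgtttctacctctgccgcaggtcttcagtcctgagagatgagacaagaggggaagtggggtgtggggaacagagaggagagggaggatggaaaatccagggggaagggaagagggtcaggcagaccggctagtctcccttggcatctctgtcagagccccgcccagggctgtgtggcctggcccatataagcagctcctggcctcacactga

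The AP-1 letters occurred in the windows of Lor (TGAGTCA, beginning 48 bases before the start), Ivl (TGACTCA, 116 bases), Rptn (TGATTCA, 96 bases) and Flg (TGAATCA, 103 bases). They were not in the windows of Hrnr, Cnfn, Tgm3 and Casp14 or in either window of Tgm1. Of 32851 promoter windows of the same length, 6.75% held them on either strand. The TATA box letters TATAAA were in 6 of the 10 member windows (Lor, Flg, Ivl, Hrnr, Rptn and Tgm3), against 12.4% of all windows. The KLF letters CACCC were in 8 member windows, against 52% of all, and the GRHL letters AACNGGTT in that of Rptn, against 1.79% of all. The motifs were picked after the values of the members had been seen, both strands were read, and a match describes letters and no binding.

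Loricrin was near the WT level in KO replicates 1 and 2 and far above it in KO replicate 3. Its probe read 227, 266, 2893 and 3181 on KO arrays 1, 2, 3 and 1.1, against 271, 375, 167 and 251 on WT arrays 1, 2, 3 and 1.1. KO arrays 1 and 2 lay inside the WT range, and both arrays of KO replicate 3 lay above every other array. Lor averaged 1175 ± 1610 in KO and 267 ± 104 in WT (SD, n = 3 each). The log2 difference was 1.13 ± 0.91 (SE; 95% interval -1.0 to 3.27; limma adjusted p = 0.583). Without KO replicate 3 it was -0.05 ± 0.31 (95% interval -0.79 to 0.70; limma adjusted p = 0.946), so the direction of the Lor difference rests on that replicate.

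Involucrin was higher in every KO replicate than in any WT replicate, although the difference did not pass the test. Ivl read 105, 132, 788 and 799 on KO arrays 1, 2, 3 and 1.1, against 84.9, 57.9, 32.2 and 78.7 on WT arrays 1, 2, 3 and 1.1. The groups did not overlap, and arrays KO 1 and WT 1 lay closest across the gap. The log2 difference was 1.79 ± 0.69 (SE; 95% interval 0.18 to 3.41; limma adjusted p = 0.249). Without KO replicate 3 it was 0.93 ± 0.30 (95% interval 0.21 to 1.65; limma adjusted p = 0.134), smaller and with a smaller error.

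Cornifelin, too, was higher in every KO replicate than in any WT replicate without passing the test. Cnfn read 51.8, 84.3, 584 and 584 on KO arrays 1, 2, 3 and 1.1, against 38.1, 38.5, 15.6 and 28.1 on WT arrays 1, 2, 3 and 1.1. All KO arrays lay above all WT arrays, and array KO 1 lay closest to WT. The log2 difference was 1.87 ± 0.75 (SE; 95% interval 0.12 to 3.62; limma adjusted p = 0.261), and without KO replicate 3 it was 0.91 ± 0.29 (95% interval 0.23 to 1.60; limma adjusted p = 0.127).

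**Figure D1:**
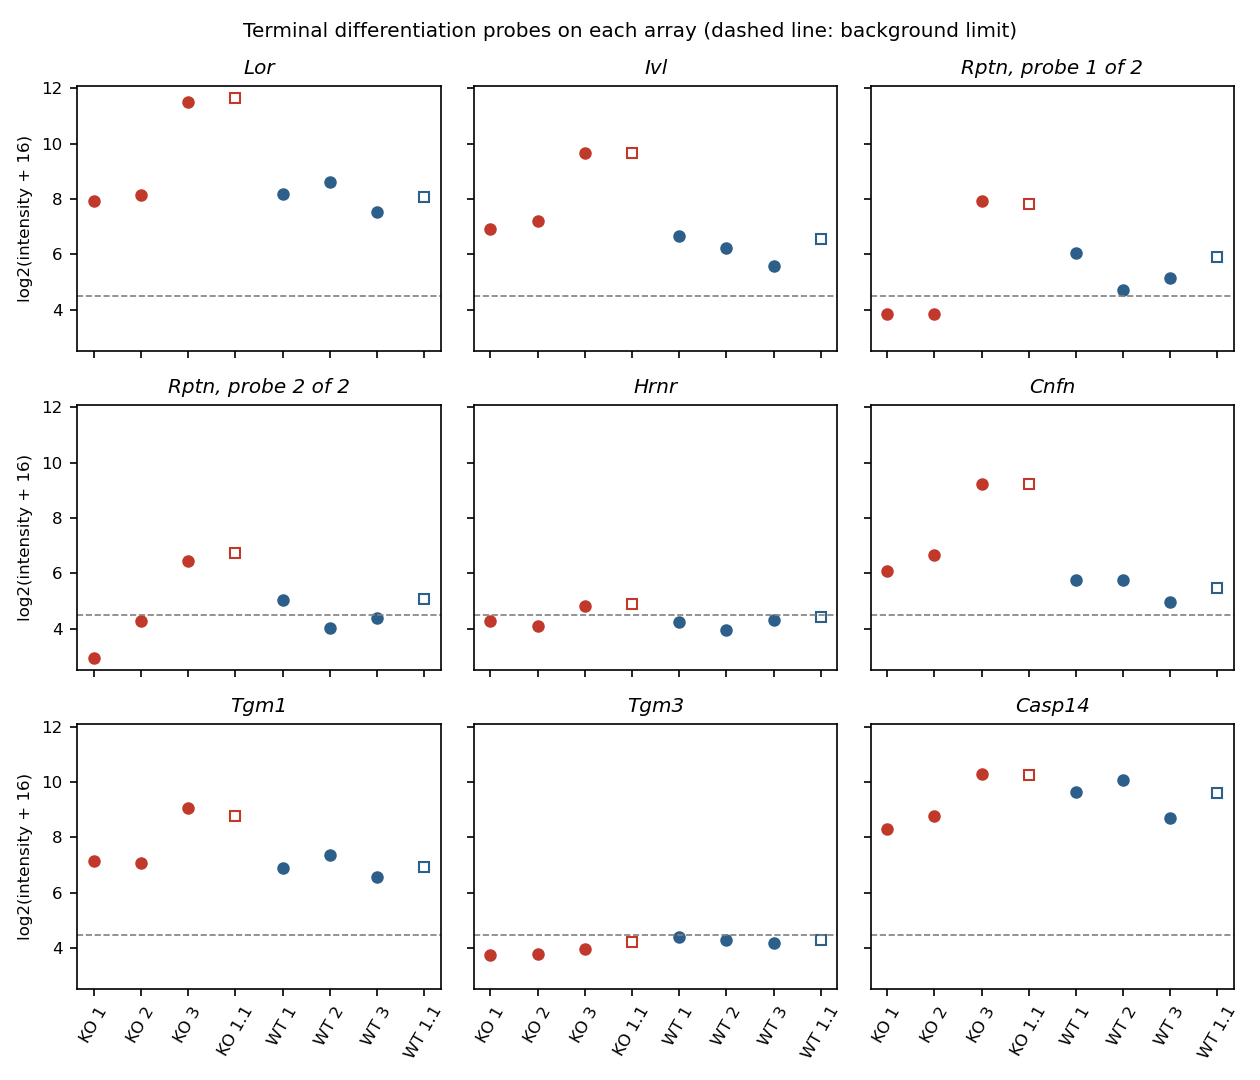
Level of the 9 probes of the 8 members on each of the 8 arrays, as log2(intensity + 16), with KO arrays in red at the left and WT arrays in blue at the right; open squares are the arrays numbered 1.1 and the dashed line is the background limit of 6.30. Arrays KO 3 and KO 1.1 are above all other arrays for every member but Tgm3, which is below the limit on all 8 arrays, and for Rptn the arrays KO 1 and KO 2 are below the limit.

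Repetin, on the brighter of its probes, lay below WT in KO replicates 1 and 2 and above it in KO replicate 3. Its brighter probe read -1.54, -1.84, 226 and 210.1 on KO arrays 1, 2, 3 and 1.1, against 49.2, 9.98, 19.7 and 43.2 on WT arrays 1, 2, 3 and 1.1. It was thus not above the background limit in KO replicates 1 and 2, above it on every WT array, and highest in KO replicate 3. The other Rptn probe read -8.32, 3.37, 71.0 and 91.5 on the KO arrays, against 16.7, 0.29, 5.09 and 17.7 on the WT arrays, in the same order of arrays. It too was above the limit on no array of KO replicates 1 and 2, but on only 2 of the 4 WT arrays. The log2 difference of the brighter probe was -0.09 ± 1.04 (SE; 95% interval -2.51 to 2.34; limma adjusted p = 0.977). Without KO replicate 3 it was -1.43 ± 0.35 (95% interval -2.26 to -0.61; limma adjusted p = 0.0767). Since neither remaining KO replicate was above the limit, that fitted value is no measured size. With KO set at the limit, the brighter probe was at least 1.73-fold lower in KO replicates 1 and 2 on the scale of intensity + 16. No such bound is given for the other probe, which was above the limit on only 2 of the 4 WT arrays.

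Hornerin, whose gene lies between those of filaggrin and repetin, was close to background. Hrnr read 3.37, 0.93, 12.1 and 13.9 on KO arrays 1, 2, 3 and 1.1, against 3.04, -0.66, 3.87 and 5.51 on WT arrays 1, 2, 3 and 1.1. It was above the limit on both arrays of KO replicate 3 and on no other array, too few for the test, and no fold is given.

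Of the enzymes, Tgm1 showed the same high reading in KO replicate 3 at a smaller size. Tgm1 read 126, 117, 515 and 421 on KO arrays 1, 2, 3 and 1.1, against 102, 149.6, 79.7 and 105 on WT arrays 1, 2, 3 and 1.1. KO arrays 1 and 2 lay within the WT range. The log2 difference was 0.76 ± 0.49 (SE; 95% interval -0.40 to 1.91; limma adjusted p = 0.484), and without KO replicate 3 it was 0.15 ± 0.25 (95% interval -0.43 to 0.74; limma adjusted p = 0.754). Tgm3 was not above the limit on any of the 8 arrays, at -2.55 to 2.37 on KO arrays and 2.20 to 4.85 on WT arrays, so its level cannot be ordered.

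Of the 6 tested members, Casp14 differed least between KO replicate 3 and WT. It read 299.7, 419, 1241 and 1201 on KO arrays 1, 2, 3 and 1.1, against 771, 1058, 397 and 761 on WT arrays 1, 2, 3 and 1.1. The WT replicates were themselves spread, and array WT 3 fell between KO arrays 1 and 2. The log2 difference was -0.34 ± 0.55 (SE; 95% interval -1.62 to 0.94; limma adjusted p = 0.800), and without KO replicate 3 it was -0.92 ± 0.39 (95% interval -1.86 to 0.01; limma adjusted p = 0.222).

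Across the members, 6 of the 8 with a probe were bright enough to test and 0 passed limma's test at an adjusted p under 0.05, beside 0.708% of all 9881 genes tested (0.293% higher and 0.415% lower in KO). At an unadjusted p under 0.05 there were 2 (Ivl and Cnfn), beside 17.1% of all genes. Every KO replicate lay above every WT replicate for these same 2 genes, beside 11.6% of all genes, and no member lay wholly below WT, beside 10.9%. Without KO replicate 3, 0 of the 6 passed, beside 2.67% of all genes (1.01% higher and 1.66% lower in KO), and 3 (Ivl, Cnfn and Rptn) had an unadjusted p under 0.05, beside 23% of all genes. With arrays averaged as the labels number them, again 0 of the 6 passed, beside 2.64% of all genes. The intervals were wide: with all replicates that of Rptn reached from -2.51 to 2.34, so equal levels were not shown for any member.

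**Figure D2:**
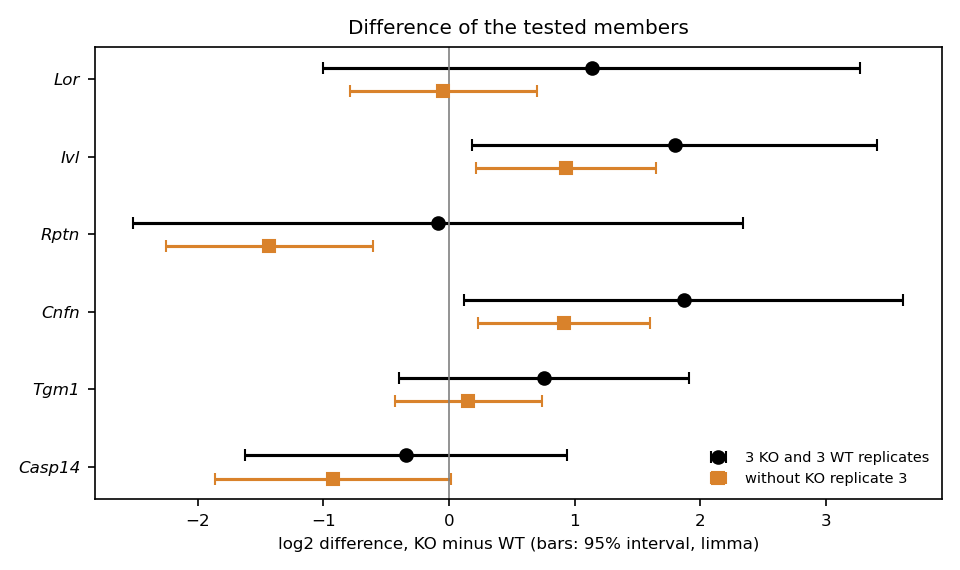
Log2 difference, KO minus WT, for the 6 tested members, with 95% intervals from limma; black circles use 3 KO and 3 WT replicates and orange squares leave out KO replicate 3. Leaving it out brought Lor and Tgm1 to -0.05 and 0.15, kept Ivl and Cnfn at 0.93 and 0.91, and set Rptn and Casp14 at -1.43 and -0.92.

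The members shared 1 feature across the arrays. KO replicate 3 was the highest of the 6 replicates for all 6 tested members, beside 15.3% of all genes tested, and was the lowest for none, beside 21.3%. Its log2 level exceeded the mean of KO replicates 1 and 2 by 3.54 for Lor, 2.86 for Cnfn, 2.59 for Ivl, 1.81 for Tgm1 and 1.74 for Casp14. For Rptn, with KO replicates 1 and 2 set at the background limit, it was higher by at least 3.39 with the brighter probe and at least 2.12 with the other. Over the WT mean it stood 3.78 higher for Cnfn, 3.52 for Ivl, 3.50 for Lor, 2.60 for Rptn, 1.96 for Tgm1 and 0.82 for Casp14. For 5 of the 6, all but Casp14, it was more than 1 on the log2 scale above each of the other 5 replicates, beside 1.33% of all genes, a limit set after the values were seen. KO replicate 3 was counted as 1 sample because its 2 arrays agreed, so no test of its distance was possible.

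KO replicates 1 and 2 lay outside the WT range together for some members only. Both lay above every WT replicate for 2 of the 6 (Ivl and Cnfn), beside 23.4% of all genes. Both lay below every WT replicate for 1 of the 6 (Rptn, on its brighter probe), beside 18.9%. Among 6 genes these counts do not set the members apart from all genes. On the other Rptn probe array KO 2 read 3.37 and array WT 2 read 0.29, neither above the limit. Lor, Tgm1 and Casp14 overlapped WT there. Whether the members differ from each other in this was not tested.

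The pattern of each member over the 6 replicates was set against all tested genes, by the root mean square difference of log2 values after each gene's mean was removed. The other tested member nearest to Ivl was Cnfn and the reverse (0.21), nearer than any non-member gene to either. Krt7, a simple-epithelial keratin, and Nid1, a basement membrane protein, came next for Cnfn (0.30 and 0.33). Tmprss2, a membrane serine protease, and Atp6v1c2, a proton pump subunit, came next for Ivl (0.39 and 0.41). Tmprss2 (0.28) and Clic3, a chloride channel family member (0.29), were nearest to Lor. Tmprss2 read 143 in KO replicate 3, but 6.35 and 5.52 in KO replicates 1 and 2 and -1.44 to 7.01 in WT. These lower readings lay near or below the background limit, so their order is uncertain. The nearness of Tmprss2 to Lor and to Ivl thus rests mainly on KO replicate 3. Scel, sciellin, an envelope precursor, and the forkhead factor Foxq1 were nearest to Rptn (0.42 and 0.43). Gltp, a glycolipid transfer protein, and Tmem40 were nearest to Casp14 (0.08 and 0.12). The integrin Itgb7 and the epithelial factor Elf3 were nearest to Tgm1 (0.12 and 0.13). Tgm1 and Casp14 were each other's nearest tested members but far apart (0.61), with 670 and 1097 non-member genes nearer. The tested member nearest to Lor was Cnfn (0.46, with 15 non-member genes nearer). Rptn was farthest from its nearest tested member, Lor (0.84, with 52 non-member genes nearer).

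Other cornified envelope proteins, apart from the Sprr and Lce families, were described from a list of 23 genes, of which 15 were tested. By limma 0 passed after adjustment and 3 had an unadjusted p under 0.05, beside 17.1% of all genes. Their median log2 difference was -0.11, and that of all genes was 0.02. These medians were -0.61, with 12 of 15 negative, and 0.04 without KO replicate 3. The share of all genes that was negative without it was not counted, here or for the lists below. KO replicate 3 was the highest replicate for 7 of the 15, beside 15.3% of all genes. Krtdap, a differentiation-associated secreted protein, averaged 4785 ± 1068 in KO and 9045 ± 1832 in WT (SD, n = 3 each), a log2 difference of -0.92 ± 0.23 (limma adjusted p = 0.115). Krtdap was at -0.99 ± 0.26 without KO replicate 3 (limma adjusted p = 0.0924). Its 4 KO arrays, KO 3 among them, lay below all 4 WT arrays. Cst6, a cysteine protease inhibitor, was above the limit on no KO array and on 3 of 4 WT arrays with the probe that passed the filter. Array WT 2 read 1.92 on that probe, and the other Cst6 probe was above the limit on no array. As array WT 2 was not above the limit on the probe that passed, no fold is given for Cst6. It did not pass the test (limma adjusted p = 0.231, and 0.199 without KO replicate 3).

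Several of these genes, named after their values were seen, had the spread of Rptn. Cdsn, the corneodesmosome adhesion protein, read 113, 198, 2962 and 2920.0 on KO arrays 1, 2, 3 and 1.1, against 527, 506, 136 and 525 on WT arrays 1, 2, 3 and 1.1. Scel read 12.7, 11.01, 241 and 245 on the same KO arrays, against 119.6, 32.8, 21.6 and 121 on the WT arrays. In both genes KO replicate 3 stood above WT, while KO replicates 1 and 2 lay below all WT replicates for Scel and overlapped them for Cdsn. The log2 differences were 0.31 ± 1.13 for Cdsn (limma adjusted p = 0.924) and -0.11 ± 0.90 for Scel (limma adjusted p = 0.971). Leaving out KO replicate 3, Cdsn turned to -1.08 ± 0.57 (limma adjusted p = 0.307) and Scel was at -1.18 ± 0.51 (limma adjusted p = 0.227).

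Other cross-linking and processing enzymes were described from a list of 19 genes, of which 11 were tested. By limma 0 passed after adjustment and 1 had an unadjusted p under 0.05, beside 17.1% of all genes, and the median log2 difference was 0.02. It was -0.37, with 8 of 11 negative, without KO replicate 3. KO replicate 3 was the highest replicate for 7 of the 11, beside 15.3% of all genes. St14, matriptase, an upstream protease of filaggrin processing, averaged 191 ± 22.5 in KO and 115.6 ± 19.99 in WT (SD, n = 3 each). All KO replicates lay above all WT replicates, and its log2 difference was 0.66 ± 0.17 (limma adjusted p = 0.116), and 0.57 ± 0.18 without KO replicate 3 (limma adjusted p = 0.127). F13a1, the plasma transglutaminase subunit, read -1.46 to 12.8 on KO arrays, 2 of them above the limit, and 9.55 to 62.3 on WT arrays, a log2 difference of -0.79 ± 0.45 (limma adjusted p = 0.431), and -0.53 ± 0.48 without KO replicate 3 (limma adjusted p = 0.556). Asprv1, the protease that trims filaggrin in the granular layer, was named after its values were seen. It read 241, 248, 4374 and 3883 on KO arrays 1, 2, 3 and 1.1, against 1773, 872, 398 and 1779.6 on WT arrays 1, 2, 3 and 1.1. KO arrays 1 and 2 lay below all WT arrays and KO arrays 3 and 1.1 above them (log2 difference -0.41 ± 1.09; limma adjusted p = 0.889). For Asprv1 the difference without KO replicate 3 was -1.74 ± 0.54 (limma adjusted p = 0.125). Padi1, a peptidyl-arginine deiminase, was likewise named afterwards and was above the limit only on arrays KO 3 and KO 1.1, at 146 and 179, too few for the test.

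**Figure D3:**
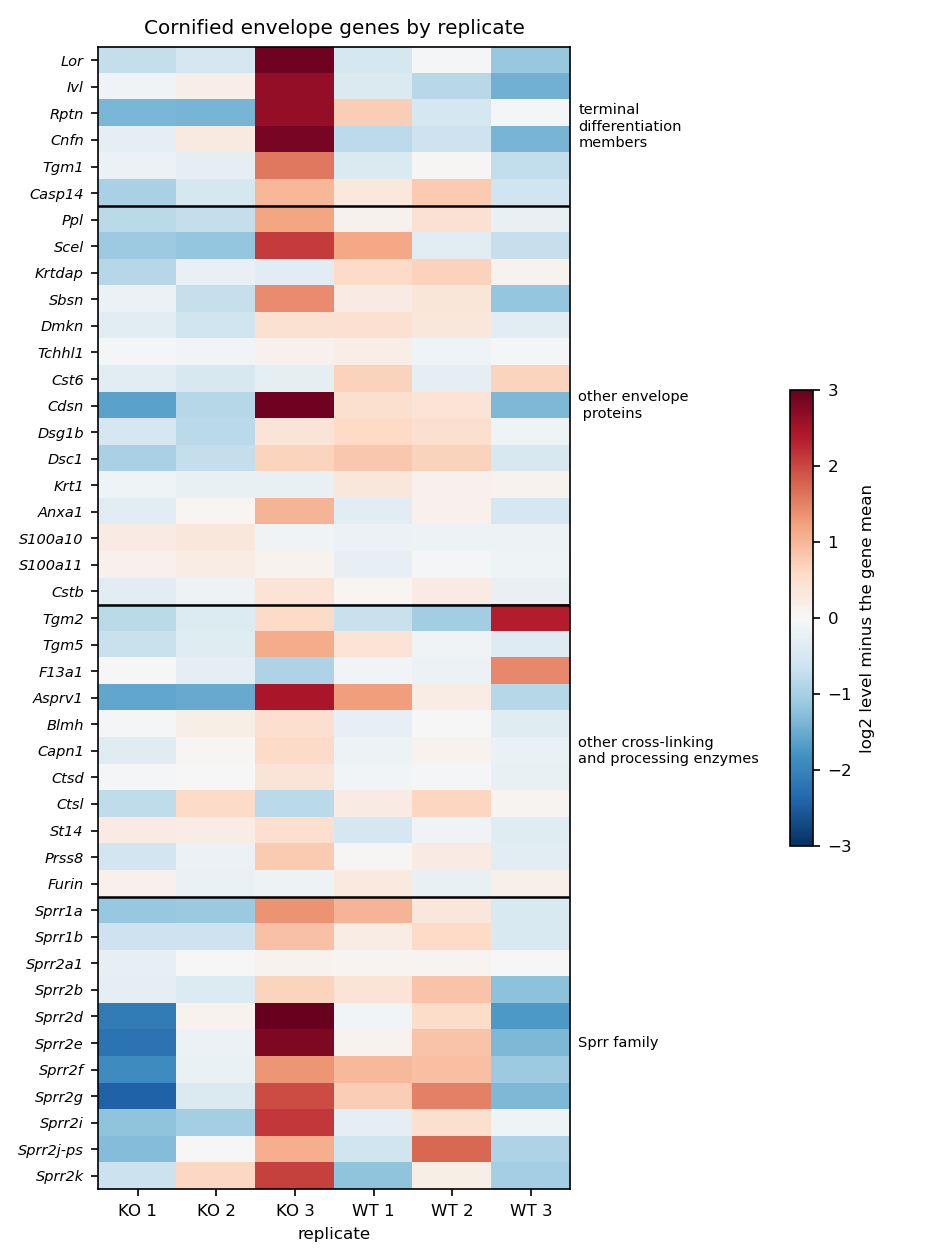
Log2 level of each gene minus its mean over the 6 replicates, for the 6 tested members and for the tested genes of the other envelope, enzyme and Sprr lists, with KO replicates 1, 2 and 3 at the left and WT replicates 1, 2 and 3 at the right (red is above the gene's mean, blue below; the colour scale ends at -3 and 3). KO replicate 3 is the reddest column for all 6 members, 7 of 15 other envelope proteins, 7 of 11 enzymes and 9 of 11 Sprr genes.

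The Sprr and Lce families, small envelope proteins encoded beside the chromosome 3 members, differed in how they followed KO replicate 3. It was the highest replicate for 9 of 11 tested Sprr genes and for 4 of 11 tested Lce genes, beside 15.3% of all genes. This contrast was not tested. A probe above the limit on all 8 arrays was present for 9 of the 11 Sprr genes and 6 of the 11 Lce genes. The highest replicate of a dimmer gene is uncertain. No gene of either family passed limma's test. At an unadjusted p under 0.05 there were 0 of 11 Sprr and 3 of 11 Lce genes, beside 17.1% of all genes. The median log2 differences were -0.10 for Sprr and 0.19 for Lce. The medians without KO replicate 3 were -0.73 for Sprr, with 10 of 11 negative, and 0.11 for Lce. Sprr2k read 735 to 4974 on KO arrays and 462 to 1304 on WT arrays (log2 difference 1.36 ± 0.67; limma adjusted p = 0.352). Sprr2d read 182 to 8382 on KO arrays and 239.7 to 1227 on WT arrays (log2 difference 0.84 ± 1.26; limma adjusted p = 0.785). With KO replicate 3 left out, Sprr2k was at 0.67 ± 0.50 (limma adjusted p = 0.471) and Sprr2d turned to -0.58 ± 0.81 (limma adjusted p = 0.714). Lce3c and Lce3b lay lower in every KO replicate, KO replicate 3 included, than in any WT replicate, for Lce3b on the brightest of its probes. On another Lce3b probe that passed the filter the groups overlapped, at 30.7 to 134 on KO arrays and 91.7 to 312 on WT arrays. Lce3c averaged 439 ± 198 in KO and 1549 ± 581 in WT (SD, n = 3 each), a log2 difference of -1.83 ± 0.42 (limma adjusted p = 0.101). For Lce3b it was -1.79 ± 0.42 (limma adjusted p = 0.106). The differences without KO replicate 3 were -2.08 ± 0.44 for Lce3c (limma adjusted p = 0.0598) and -2.10 ± 0.41 for Lce3b (limma adjusted p = 0.0513). Copies within these families are nearly identical in sequence, so which copy a probe measured is uncertain.

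Regulators of differentiation were described from a list of 29 genes, of which 19 were tested, and 1 passed. Pou3f1, a POU factor of keratinocytes, fell to 76.2 ± 16.8 in KO, against 342 ± 90.2 in WT (SD, n = 3 each), a log2 difference of -1.94 ± 0.24 (limma adjusted p = 0.0264). It was also low in KO replicate 3, at 60.01 and 53.7 on arrays KO 3 and KO 1.1, so it did not share the members' order of KO replicates. The list's median log2 difference was -0.37, and 14 of 19 were negative, beside 4697 of all 9881 genes. By limma 7 of 19 had an unadjusted p under 0.05, beside 17.1% of all genes. KO replicate 3 was the highest replicate for 3 of the 19 and the lowest for 4, beside 15.3% and 21.3% of all genes. Without KO replicate 3 the median was -0.46, and 4 of 19 passed, beside 2.67% of all genes. As that replicate was left out because it stood apart in these data, the p-values of this fit are likely too small. The 4 genes were named after their values were seen. The AP-1 subunit Fosl1 rose by 1.94 ± 0.33 (limma adjusted p = 0.0412). Zfp750 fell by 1.47 ± 0.16 (limma adjusted p = 0.0219), Cebpb by 1.17 ± 0.18 (limma adjusted p = 0.0352) and Pou3f1 by 1.78 ± 0.24 (limma adjusted p = 0.0250). With all replicates the first 3 of these did not pass (limma adjusted p = 0.0773 for Fosl1, 0.148 for Zfp750 and 0.0906 for Cebpb).

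No basal layer gene passed. Of 12 listed, 10 were tested, 0 passed by limma after adjustment and 2 had an unadjusted p under 0.05, beside 17.1% of all genes. The median log2 difference was 0.24, and 0.36 without KO replicate 3. KO replicate 3 was the highest replicate for none of the 10 and the lowest for 2, beside 15.3% and 21.3% of all genes. Itga3, an integrin chain, read 4994 to 9023 on KO arrays and 1981 to 4788 on WT arrays (log2 difference 1.25 ± 0.36; limma adjusted p = 0.142), and 1.47 ± 0.37 without KO replicate 3 (limma adjusted p = 0.0837). Trp63, the p63 factor of basal cells, averaged 2135 ± 399 in KO and 3395 ± 457 in WT (SD, n = 3 each; log2 difference -0.67 ± 0.20; limma adjusted p = 0.146). Trp63 was at -0.51 ± 0.18 without KO replicate 3 (limma adjusted p = 0.151).

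**Figure D4:**
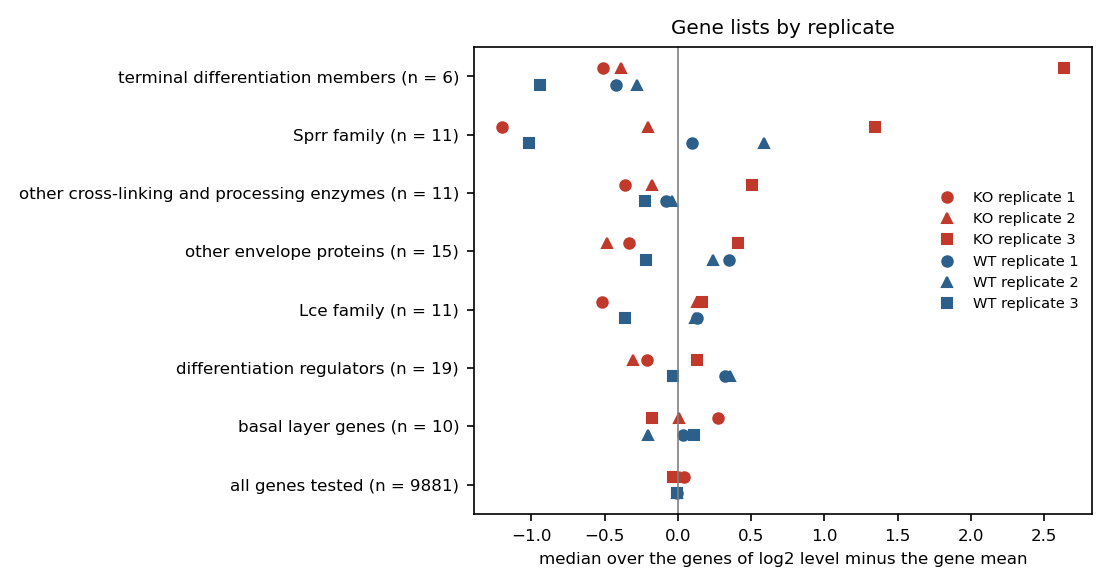
Median over the tested genes of each list of the log2 level minus the gene's mean, for KO replicates (red, upper row of each list) and WT replicates (blue, lower row). For the 6 members KO replicate 3 lies at 2.63 and the other 5 replicates between -0.94 and -0.28, while over all 9881 genes the 6 replicates lie between -0.03 and 0.04.

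Markers of other cell types also differed in KO replicate 3, and their part in the members' levels was not tested. Over all genes, KO replicate 3 was the highest replicate for 15.3% and the lowest for 21.3%. The simple-epithelial keratins Krt7, Krt8 and Krt18 were all highest there, with a summed level of 2278, against 253 and 452 in KO replicates 1 and 2 and 117 to 287 in WT. All 8 tested melanocyte markers were lowest there, with a summed level of 396, against 1648 and 1256 in KO replicates 1 and 2 and 935 to 3284 in WT. Of these markers Tyr, Mitf and Gpr143 were dim, at -1.92, 2.55 and 0.47 in KO replicate 3, not above the limit. Their rank is therefore uncertain. The 7 tested fibroblast markers were highest or lowest there in no case, with a summed level of 263 in KO replicate 3, 262 and 542 in the other KO replicates and 53.6 to 1119 in WT. Endothelial markers were near background, with 2 of 7 tested. Of 11 hair follicle markers 8 were tested, 1 was highest and 1 lowest in KO replicate 3, and Shh and Krt71 were above the limit on no array. In these bulk samples, more cells at a late stage and more of a transcript per cell cannot be told apart.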

How the data were processed

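Expression was measured on 8 Illumina arrays, 4 of KO and 4 of WT keratinocytes. The deposited value table gives, for each array, a linear intensity for every probe. No source used here says how the authors made it. Its values show background subtraction (27.1% to 27.3% of probes per array are negative) and the same lowest and highest value on all arrays, as quantile normalization leaves them. A further table of 16 value columns was not used, because their names match no sample label. Its 8 array names are 6 names and 2 of them again with a suffix.

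The members and lists were chosen with earlier results of these data known. Intensities were tested as log2(intensity + 16), so differences of dim genes are understated. The background limit, 6.30, is the value that 5% of the noise exceeds when negative values are mirrored around 0. Probes above it on at least 3 arrays (14453) were kept, and the brightest probe stood for a gene, which gave 9881 genes. Of the probes, 23978 had 1 gene symbol, 0 several and 1719 none, from GEO's platform annotation. Gene IDs of 23962 were found in the RefSeq table of GRCm38.p6, which changed 0 symbols. Arrays KO 3 and KO 1.1, and WT 1 and WT 1.1, were averaged on the log2 scale.

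Genotypes were compared in R 4.3.3 with lmFit and eBayes of limma 3.58.1, with Benjamini-Hochberg adjustment over all genes and a call at an adjusted p under 0.05. Every adjusted p is from limma. The fit was tested on simulated data. The number of arrays limits the precision. Named genes were all probes of the members, the called genes of each list (or, with 0 called, the 2 that changed most), and the 2 genes nearest to each tested member. Others are said to be named after their values were seen. The 250 bases before gene starts are from RefSeq, and all 9 members matched.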

Additional observations from a re-analysis of the deposited data

How the results depend on the processing

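Under each of 18 alternatives 0 members passed the adjusted threshold, among 6 tested (8 with no filter on dim probes, 5 with probes above the limit on all 8 arrays). The direction of Ivl, Cnfn and Tgm1 held under all 18, with log2 differences, KO minus WT, of 0.93 to 2.30, 0.91 to 2.48 and 0.15 to 1.08. Their limma adjusted p ran from 0.0845 to 0.444, 0.0776 to 0.508 and 0.262 to 0.754. Each of these genes had only 1 probe. The replicate block, a robust prior and the changes of filter or probe choice therefore left their differences at 1.79, 1.87 and 0.76. Those settings could only return the same direction. Lor turned to -0.047 without KO replicate 3 and ran up to 1.78, and Casp14 turned to 0.062 without KO replicate 1 and ran down to -0.92. Rptn, at -0.09, had no settled direction: it read 0.59 with arrays averaged as the labels number them, 0.15 and 0.23 with offsets of 32 and 64 and 0.012 with the mean of its bright probes. Leaving out 1 replicate gave Rptn -1.43 to 0.59, and 0.58, 0.59 and 0.25 without KO replicate 1, KO replicate 2 and WT replicate 1. The cause of these turns was not tested.

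Of all genes, 70 passed, and 261 did with arrays averaged as labelled, 940 with array weights and 5 to 264 with 1 replicate left out (264 without KO replicate 3, 11 and 9 without KO replicates 1 and 2, 5 and 8 without WT replicates 1 and 2). The replicate number as a block gave 21. Same-numbered KO and WT replicates did not deviate together (correlations of 0.06, 0.02 and -0.35), so the numbers were not taken as pairs, and the block called 0 members. List medians ranged over both signs for the other envelope proteins (-0.61 to 0.11), the enzymes (-0.37 to 0.31), the Sprr genes (-0.73 to 0.46) and the Lce genes (-0.0032 to 0.46), and over 0.05 to 1.41 for the members. Dim probes limit what Hrnr and Tgm3 can show.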
